A study of Rattus norvegicus with 15 samples.

Results

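The actins, tropomyosins and tropomodulins are the proteins that build, line and cap the thin filament, and 10 of their genes were followed here through the differentiation of H9c2 cells. They were taken by symbol from the 11574 genes of the count table: Acta1, Actc1, Actb, Actg1, Tpm1, Tpm2, Tpm3, Tpm4, Tmod1 and Tmod3. All 10 were listed with counts, each symbol on a single row. H9c2 is a clonal, wild-type myoblast line from embryonic rat heart, and mRNA was sequenced from 15 cultures, 3 in each of 5 groups. T0 cells were harvested before differentiation, 24 h after seeding, in medium with 10% fetal bovine serum. The other cultures were kept in 1% serum for 7 or 14 days, either without retinoic acid (T7-RA and T14-RA) or with 1 µM all-trans retinoic acid in DMSO every day (T7+RA and T14+RA). Retinoic acid (RA), made in the body from vitamin A, binds nuclear receptors that control transcription, and whether the cultures without it received DMSO is not given in the sources used here. Time in culture and the lower serum changed together between T0 and the later groups, so that both cannot be told apart.

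Actin monomers assemble into filaments with a barbed and a pointed end. Non-muscle cells build them from β-actin (Actb) and γ-actin (Actg1), smooth muscle adds Acta2 and Actg2, and the sarcomeres of striated muscle use skeletal α-actin (Acta1) and cardiac α-actin (Actc1), which are both present in the embryonic heart and in forming skeletal muscle. Tropomyosins are coiled coils that lie along the filament and, together with the troponins, gate the access of myosin. Tropomodulins cap the pointed end and set the length of thin filaments. Tropomyosin genes give several proteins by alternative promoters and splicing, among them muscle and cytoplasmic forms of Tpm1, Tpm2 and Tpm3, which counts per gene do not separate.

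The question addressed by the series was which genes respond to time in low serum and to RA. Library totals ranged from 508397 to 1030820 counts, and the 10 genes together held between 0.952% and 1.56% of a library. Levels are given as counts per 1000000 library counts (CPM) after TMM scaling, which adjusts for differences in library composition, and levels of different genes were compared as CPM per kilobase of listed gene length, except where a share or a rank is said to be by count. Changes are log2 fold changes from edgeR's quasi-likelihood test over all genes, with a standard error (SE) derived from its F statistic. A gene counts as called, rising or falling, where the adjusted p was under 0.001. The coding sequences of actins, and those of tropomyosins, are much alike, and the treatment of reads shared between relatives is not given in the sources used here, so the split of counts within a family is uncertain. In a bulk sample, fewer cells of a type and less RNA per cell cannot be told apart. Among markers of cardiac muscle, the labelled tissue, 11 of 13 were not among the genes analysed here, including Myh6, Myh7, Nppa and Tnni3, and the summed level of Gata4 and Pln was 8.28 to 21.0 CPM at T0, 10.7 to 17.4 CPM in T7-RA, 22.8 to 30.9 CPM in T7+RA, 15.2 to 34.8 CPM in T14-RA and 21.8 to 33.0 CPM in T14+RA. At day 7 this sum was higher with RA, with no overlap of libraries, as for 24.4% of all single genes in either direction. Neither gene was called with RA at day 7, and at day 14 the libraries overlapped.

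In the first week without RA, 2 members rose (Acta1 and Actc1) and 5 fell (Actb, Actg1, Tpm1, Tpm3 and Tpm4), where 8.78% of all genes were called in either direction. Under quantile normalization 2 of these 7 calls were made, those of Acta1 and Actc1, with 2.07% of all genes called, and Actb turned in direction. In the second week without RA, 4 members rose (Acta1, Actc1, Tpm1 and Tpm2) and 2 fell (Actb and Tpm4), against 2.95% of all genes. Over both weeks, 4 rose (Acta1, Actc1, Tpm2 and Tmod1) and 4 fell (Actb, Actg1, Tpm3 and Tpm4), against 15.7% of all genes, and under quantile normalization the calls of Actb and Tpm3 over both weeks were lost (limma adjusted p = 0.0398 and 0.00180). With RA at day 7, Tpm1 was higher and Acta1 and Actc1 were lower than without, with 3.17% of all genes called. With RA at day 14, Acta1, Actc1 and Tpm2 were lower, with 4.81% of all genes called. At an adjusted p under 0.05, 6 members were called at day 14, against 11.2% of all genes. Without T7-RA replicate 2 or T7+RA replicate 3, Acta1 alone was called for RA at day 7. Under quantile normalization no member was called for RA at day 7 (0.838% of all genes). With the same setting, 1 was called for RA at day 14 (Actc1, against 1.36%) and 2 in the second week (Acta1 and Actc1, against 0.484%). Libraries of the compared groups did not overlap for 8 members in the first week (33.3% of all genes), 9 in the second (25.7%), all 10 over both (40.6%), 6 for RA at day 7 (24.4%) and 6 for RA at day 14 (27.2%). The plot of levels in each library shows all members side by side.

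**Figure D1:**
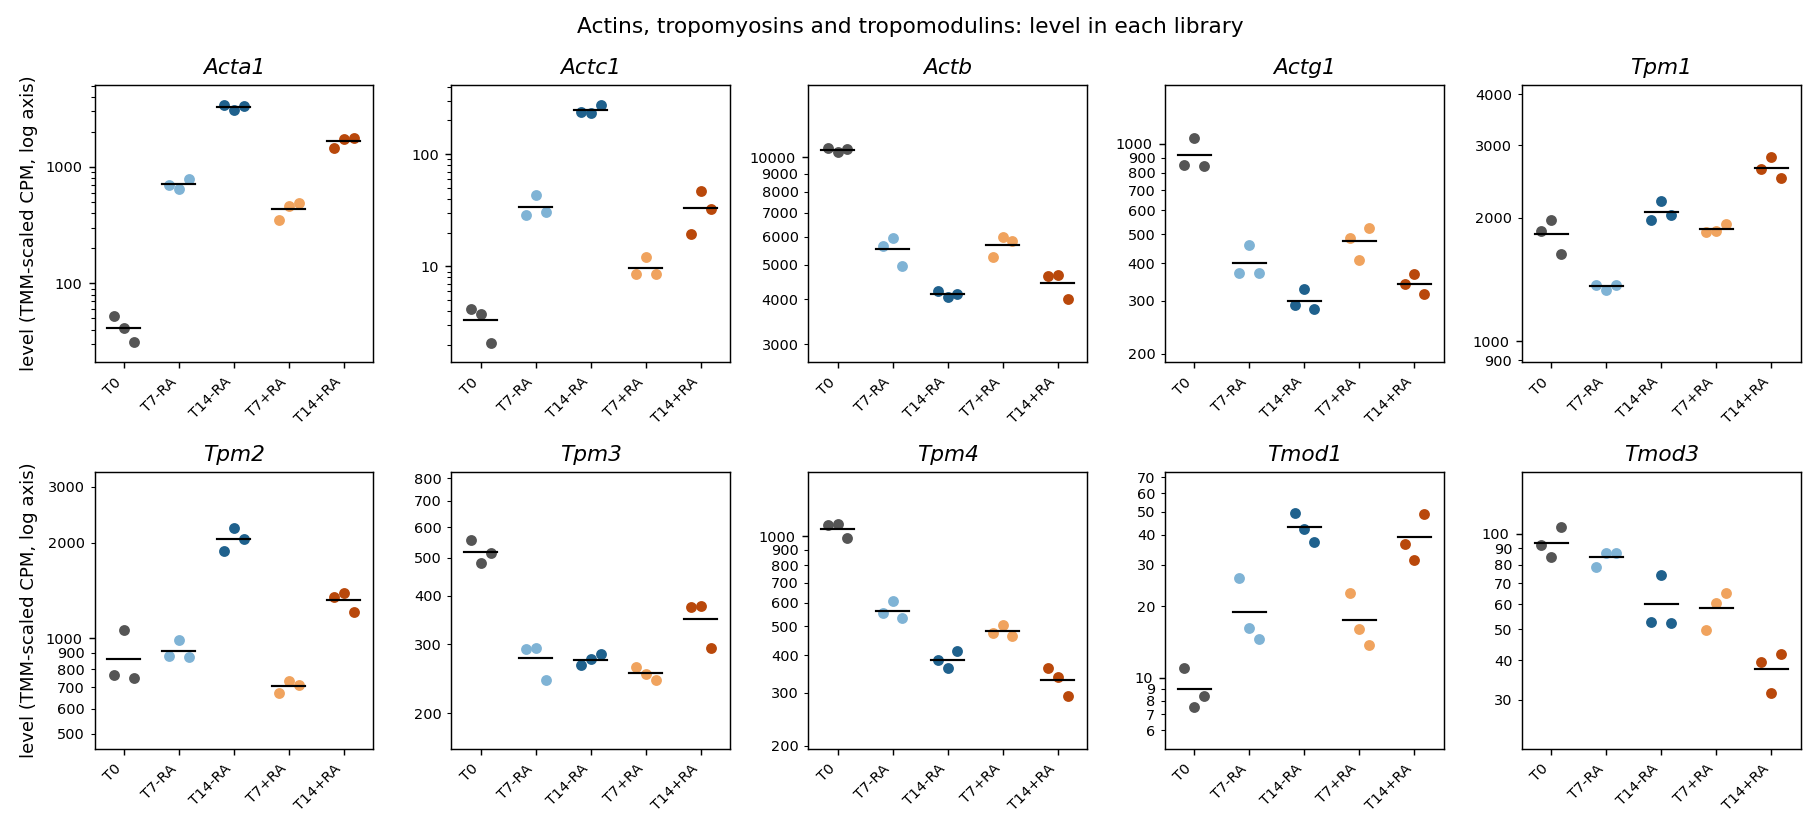
Level of each of the 10 genes in each of the 15 libraries, as TMM-scaled CPM on a logarithmic axis, with the 5 groups along the horizontal axis. Each point is a library, each bar is the mean of 3, and every panel has its own range. Acta1 and Actc1 were highest in T14-RA and lower with RA at both days, and Actb, Actg1, Tpm3 and Tpm4 were highest at T0, although the fall of Actb in the first week turned to a rise under quantile normalization.

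Acta1 (ENSRNOG00000017786, at 19q12), the gene of skeletal α-actin, rose in both weeks. Its levels were 52.4, 41.3 and 31.4 CPM at T0, then 693, 650.4 and 794 CPM in T7-RA, and finally 3375, 3084 and 3314 CPM in T14-RA. The 3 groups did not overlap, and each later group lay above the one before. Acta1 rose by 4.04 (SE 0.154, adjusted p = 1.33e-31 with edgeR) in the first week and by 2.19 (SE 0.102, adjusted p = 1.52e-26 with edgeR) in the second. Over both weeks the rise was 6.24 (SE 0.147, adjusted p = 8.89e-44 with edgeR), and the ratio of its scaled counts was 75.7 (95% counting interval 60.3 to 96.4). Ranked by count among all genes, Acta1 moved from places 4239 to 5759 at T0 to places 11 to 13 in T14-RA.

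Actc1 (ENSRNOG00000008536, at 3q35), the gene of cardiac α-actin, was nearly absent at T0, with 3, 2 and 1 counts in the 3 libraries. Its levels were 4.14, 3.75 and 2.10 CPM at T0, then 28.6, 43.0 and 30.5 CPM in T7-RA, and finally 239, 234 and 276 CPM in T14-RA. Again no groups overlapped. The rise was 3.23 (SE 0.460, adjusted p = 8.25e-08 with edgeR) in the first week and 2.87 (SE 0.190, adjusted p = 1.30e-19 with edgeR) in the second. Since the T0 level rested on 6 counts, the ratio of T14-RA to T0 was 71.9 (95% counting interval 32.8 to 197, 494 against 6 counts), a range that holds the ratio of Acta1. Per kilobase, the level of Acta1 was 13.6 ± 1.10 times that of Actc1 in T14-RA (SD, n = 3).

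With RA, both striated-muscle actins were lower. Acta1 measured 352, 458 and 490.2 CPM in T7+RA and 1453, 1748 and 1764 CPM in T14+RA. All libraries with RA lay below all libraries without it at the same day. The difference was −0.72 (SE 0.108, adjusted p = 5.84e-07 with edgeR) at day 7 and −0.98 (SE 0.0968, adjusted p = 1.53e-12 with edgeR) at day 14. Actc1 measured 8.55, 12.1 and 8.57 CPM in T7+RA and 19.3, 47.1 and 32.6 CPM in T14+RA, again without overlap. At day 14 the levels of Actc1 with RA overlapped with those that T7-RA cultures had at day 7. The difference was −1.77 (SE 0.346, adjusted p = 0.000132 with edgeR) at day 7 and −3.00 (SE 0.196, adjusted p = 3.67e-20 with edgeR) at day 14, where the scaled counts with RA were 0.123 (95% counting interval 0.0940 to 0.159) of those without. The day 7 call of Actc1 rested on 20 and 77 counts per group and was lost without T7-RA replicate 2, T7+RA replicate 1 or T7+RA replicate 3 (edgeR adjusted p up to 0.00447). It was also lost with limma-voom and under quantile normalization.

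With RA, Actc1 lay further below its level without RA than Acta1 did, and the ratio of the pair was taken within each library. Per kilobase, Acta1 was 22.6 ± 6.06 times Actc1 in T7-RA and 47.1 ± 10.7 times in T7+RA (SD, n = 3). At day 14 the ratio was 12.4 to 14.6 without RA and 38.4 to 78.1 with RA. The libraries with and without RA did not overlap at either day. The plot of ratios places this pair beside Tpm2 to Tpm1 and Tmod1 to Tmod3.

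**Figure D2:**
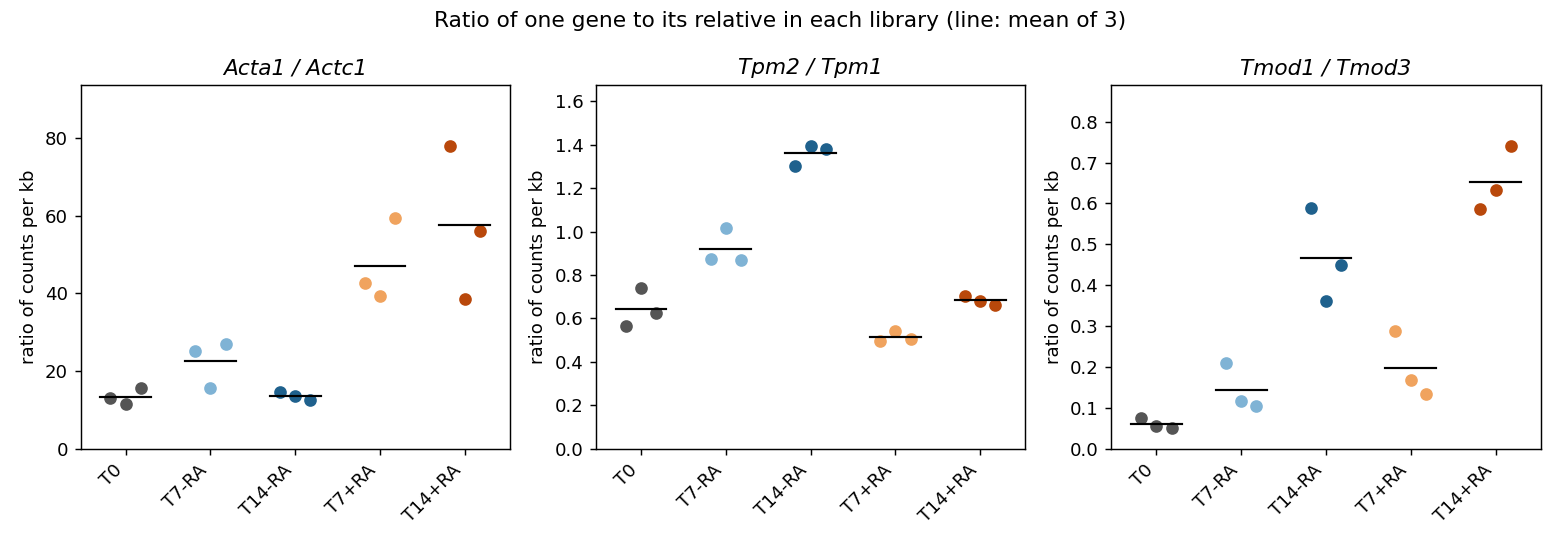
Ratio of 1 gene to its relative in each library, from counts per kilobase of listed gene length, on linear axes that start at 0. Points are libraries, bars are means of 3, and groups run along the horizontal axis. The ratio of Acta1 to Actc1 was 12.4 to 14.6 in T14-RA and 38.4 to 78.1 in T14+RA, that of Tpm2 to Tpm1 was highest in T14-RA, and that of Tmod1 to Tmod3 was higher at day 14 than at T0 with and without RA.

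Promoter windows of actin genes are shown because Acta1 and Actc1 moved together while Actg1 moved the other way, and because the CArG box, the binding motif of serum response factor, is a textbook element of actin promoters. RefSeq windows from 250 bases before to 50 bases after the start were found for 9 of the 10 genes, in 11 windows, on build GRCr8. None was found for Actb. They are written 5′ to 3′ on the strand of the gene, with the CArG box in capitals:
Acta1, chr19:68784145-68784444, minus strand: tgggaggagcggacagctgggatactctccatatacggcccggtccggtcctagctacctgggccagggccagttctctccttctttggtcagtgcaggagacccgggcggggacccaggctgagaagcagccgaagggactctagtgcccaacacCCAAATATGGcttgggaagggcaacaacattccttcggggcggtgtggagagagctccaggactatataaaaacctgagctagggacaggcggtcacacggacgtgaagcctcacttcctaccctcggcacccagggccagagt
Actc1, chr3:121271778-121272077, minus strand: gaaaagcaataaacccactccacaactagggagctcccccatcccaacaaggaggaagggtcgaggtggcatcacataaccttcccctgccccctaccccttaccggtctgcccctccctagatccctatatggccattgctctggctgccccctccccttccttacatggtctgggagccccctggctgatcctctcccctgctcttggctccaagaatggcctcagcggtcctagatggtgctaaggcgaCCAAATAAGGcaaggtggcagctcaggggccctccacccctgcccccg
Actg1, chr10:106120902-106121201, minus strand: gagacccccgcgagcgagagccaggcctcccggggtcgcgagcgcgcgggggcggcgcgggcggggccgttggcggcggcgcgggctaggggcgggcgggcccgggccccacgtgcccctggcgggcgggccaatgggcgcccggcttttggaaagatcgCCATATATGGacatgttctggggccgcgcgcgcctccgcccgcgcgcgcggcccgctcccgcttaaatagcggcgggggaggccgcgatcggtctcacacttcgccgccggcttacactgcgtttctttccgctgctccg

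A CArG box, searched on both strands, stood in the windows of these 3 genes and in none of those of Tpm1, Tpm2, Tpm3, Tpm4, Tmod1 and Tmod3, while 1.64% of all 33469 windows of the same length held it. Its first base lay at position −94 from the start in Acta1, at −90 in Actg1 and at 2 in Actc1. Positions are from the listed RefSeq start, and which start these cells used was not tested. The Acta1 window also held CATTCC, the letters bound by TEAD factors, and TATAAA, which 4749 and 4760 of all windows held, and neither overlapped the CArG box. CATTCC stood in the Tpm1 window too, at position −31. Of these 3 genes, Acta1 and Actc1 rose and Actg1 fell over both weeks. Tpm2 and Tmod1, whose windows held no box, rose over both weeks too. Any part of the box in these changes was not tested. A match describes letters only, and binding was not measured.

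Actb (ENSRNOG00000034254, at 12p11), the gene of β-actin and a common reference gene for qPCR, was the most abundant member in every group. Its levels were 10629, 10345 and 10571 CPM at T0, then 5645, 5949 and 4970.2 CPM in T7-RA, and finally 4219.7, 4058 and 4155 CPM in T14-RA. Every T0 library lay above every later one, and T14-RA lay below T7-RA. Actb fell by 0.93 on the log2 scale (SE 0.0822, adjusted p = 1.97e-14 with edgeR) in the first week, a direction that turned to a rise of 0.19 under quantile normalization. It fell by 0.41 on the log2 scale (SE 0.0823, adjusted p = 0.000201 with edgeR) in the second week and by 1.34 on the log2 scale (SE 0.0832, adjusted p = 1.11e-21 with edgeR) over both. The second-week call was lost on leaving out any of the T14-RA libraries or T7-RA replicate 1 or 2 (edgeR adjusted p up to 0.00858), and also with limma-trend. Under quantile normalization the second-week and both-week changes were −0.61 and −0.42 and were not called (limma adjusted p = 0.0283 and 0.0398). Actb stood between places 3 and 7 by count in every library, and quantile normalization gives genes at the same place the same value.

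RA left no called difference in Actb. It measured 5258, 5989.9 and 5828 CPM in T7+RA and 4651, 4694 and 4001 CPM in T14+RA, and the libraries overlapped with those without RA. The difference was 0.044 (SE 0.0818, adjusted p = 0.873 with edgeR) at day 7, with a 95% interval of −0.12 to 0.20, and 0.10 (SE 0.0824, adjusted p = 0.541 with edgeR) at day 14, with a 95% interval of −0.059 to 0.26.

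Actg1 (ENSRNOG00000036701, at 10q32.3), the gene of cytoplasmic γ-actin, moved like Actb at a lower level. It measured 849.8, 1047 and 847 CPM at T0, then 372, 459.6 and 372 CPM in T7-RA, and finally 291, 329 and 281 CPM in T14-RA. The groups did not overlap, and the second-week change of −0.42 (SE 0.116, adjusted p = 0.0118 with edgeR) was not called. It fell by 1.19 on the log2 scale (SE 0.108, adjusted p = 5.02e-14 with edgeR) in the first week and by 1.61 on the log2 scale (SE 0.112, adjusted p = 2.85e-19 with edgeR) over both weeks. With RA it measured 487, 411 and 524 CPM at day 7 and 341, 368 and 317 CPM at day 14, and neither difference was called (0.24 and 0.19 on the log2 scale, edgeR adjusted p = 0.241 and 0.372). The share of Actb in the sum of Actb and Actg1, on the per-length scale, was 90.7% ± 1.17 at T0 and 92.2% ± 0.742 in T14-RA (SD, n = 3). The listed length of Actg1, 1128 bases, is a whole number of codons (376), and whether untranslated sequence was counted for it was not tested.

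These opposite movements changed the make-up of the counts of the 4 actins. Acta1 and Actc1 made up 0.392% ± 0.0987 of the counts of the 4 actins at T0, then 11.3% ± 1.87 in T7-RA and then 44.1% ± 0.902 in T14-RA (SD, n = 3). With RA the share was 6.67% ± 0.702 at day 7 and 26.1% ± 3.31 at day 14. No 2 groups overlapped in this share. Per length, the 5 means were 0.356%, 10.4%, 41.7%, 6.10% and 24.3% in the same order.

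The smooth-muscle actins Acta2 and Actg2 were read beside the members because they were abundant in the undifferentiated cells. Acta2 measured 12684 ± 323 CPM at T0 and 2498 ± 32.4 CPM in T14-RA (SD, n = 3), and its change over both weeks was −2.34 (SE 0.0919, adjusted p = 7.73e-32 with edgeR). In T14+RA it measured 3273 ± 256 CPM and was higher than without RA by 0.39 (SE 0.0890, adjusted p = 0.000935 with edgeR). Its mean RA shift over both days, 0.27, was not called (edgeR adjusted p = 0.00595). Actg2 measured 1267 ± 151 CPM at T0, 305 ± 27.0 CPM in T14-RA and 207 ± 14.0 CPM in T14+RA. It was lower with RA at day 14, a change of −0.57 (SE 0.123, adjusted p = 0.000464 with edgeR), the opposite direction to that of Acta2. Of the 6 actins per length, Acta2 and Actg2 held 53.2% ± 0.797 at T0, then 34.7% ± 2.19 in T7-RA and then 25.6% ± 0.850 in T14-RA, against 34.0% ± 0.370 in T14+RA. Of the same 6 actins, Acta2 alone held 22.9% ± 0.646 in T14-RA and 32.0% ± 0.593 in T14+RA, while Actg2 held 2.74% ± 0.267 and 2.00% ± 0.223. Acta1 and Actc1 went from 0.166% ± 0.0406 at T0 to 31.0% ± 1.03 in T14-RA, and to 16.1% ± 2.16 in T14+RA. Actb and Actg1 held between 43.3% in T14-RA and 59.7% in T7+RA as group means. In T14-RA smooth-muscle, striated-muscle and cytoplasmic actins were thus all a large part of the actin counts, as the plot of actin shares shows.

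**Figure D3:**
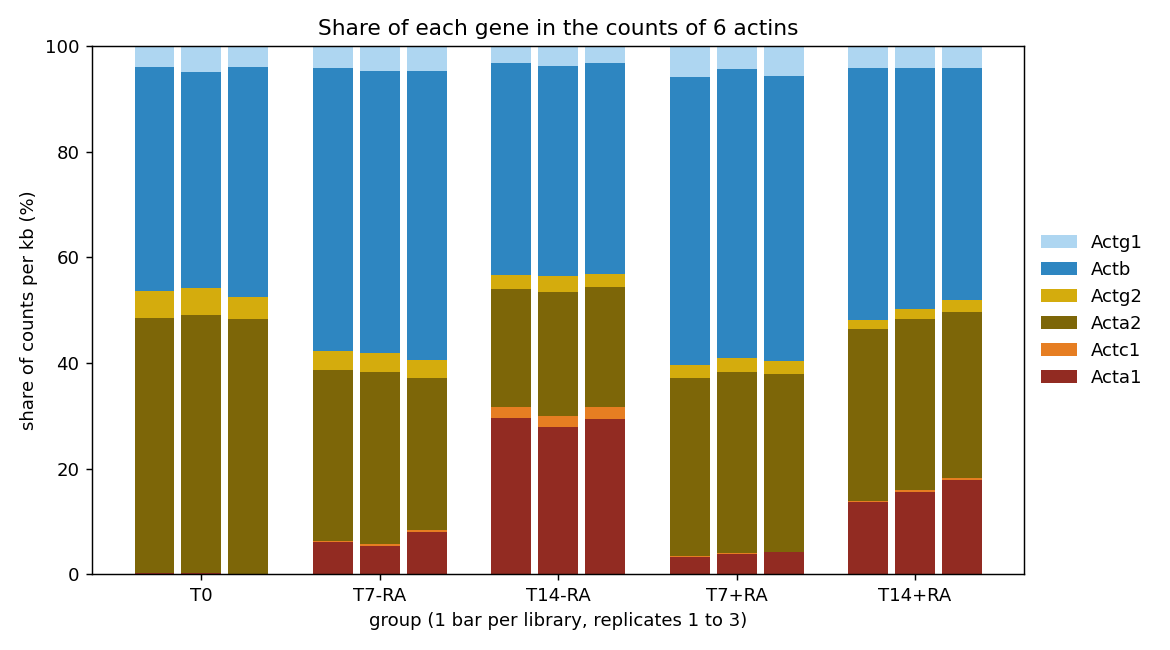
Make-up of the counts of 6 actin genes per kilobase of listed length, in percent of their sum, for each of the 15 libraries in their 5 groups. Acta2 and Actg2 held most at T0 and Acta1 and Actc1 grew to 31.0% on average in T14-RA but to 16.1% in T14+RA.

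Tpm1 (ENSRNOG00000018184, at 8q24), which gives the main striated-muscle α-tropomyosin and several cytoplasmic forms, fell and then rose. It measured 1857, 1979 and 1637 CPM at T0, then 1375, 1334 and 1374 CPM in T7-RA, and finally 1981, 2193 and 2034 CPM in T14-RA. T7-RA lay below both other groups, and T14-RA lay just above T0, a difference of 0.18 (SE 0.0864, adjusted p = 0.106 with edgeR) that was not called. It fell by 0.42 on the log2 scale (SE 0.0871, adjusted p = 0.000137 with edgeR) in the first week and rose by 0.60 (SE 0.0866, adjusted p = 2.61e-07 with edgeR) in the second. The first-week call was lost without T0 replicate 1 or 2 or any T7-RA library (edgeR adjusted p up to 0.00265), and also with scaling by library size only. Under quantile normalization the calls of both weeks were lost.

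Tpm1 was the member with a called rise under RA. It measured 1852, 1854 and 1937 CPM in T7+RA and 2625, 2808 and 2496 CPM in T14+RA, above all libraries without RA at each day. The difference was 0.47 (SE 0.0866, adjusted p = 5.27e-05 with edgeR) at day 7 and 0.35 (SE 0.0853, adjusted p = 0.00189 with edgeR) at day 14, where it missed the threshold with edgeR but passed it with DESeq2 and limma-voom and with the replicate number as a block (adjusted p = 0.000453, 5.14e-05 and 0.000340). It also passed without T0 replicate 2 or 3. The day 7 call was lost without T7-RA replicate 2 or T7+RA replicate 3 (edgeR adjusted p up to 0.00141), and also under quantile normalization.

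Tpm2 (ENSRNOG00000016731, at 5q22), the gene of β-tropomyosin of muscle, rose in the second week. It measured 767, 1066 and 748 CPM at T0, then 877, 990.4 and 870.0 CPM in T7-RA, and finally 1882, 2233 and 2051 CPM in T14-RA. T0 and T7-RA overlapped, with a difference of 0.086 (SE 0.102, adjusted p = 0.600 with edgeR), and T14-RA lay above both. Tpm2 rose by 1.17 (SE 0.0993, adjusted p = 1.10e-14 with edgeR) in the second week. With RA it measured 671, 734 and 711 CPM at day 7 and 1349, 1392 and 1209 CPM at day 14, below all libraries without RA at each day. The difference was −0.37 (SE 0.103, adjusted p = 0.0118 with edgeR) at day 7, which was not called, and −0.64 (SE 0.0976, adjusted p = 7.09e-07 with edgeR) at day 14. Under quantile normalization the second-week rise was 1.01 and the day 14 difference −0.55, and neither was called (limma adjusted p = 0.00204 and 0.0407). Tpm1 and Tpm2 thus had RA changes of opposite sign at both days, and Tpm2 per kilobase was 1.36 ± 0.0505 times Tpm1 in T14-RA and 0.683 ± 0.0203 times in T14+RA (SD, n = 3).

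Tpm3 (ENSRNOG00000017441, at 2q34), which gives slow-muscle and cytoplasmic tropomyosins, fell in the first week and then differed little. It measured 555, 484 and 514 CPM at T0, then 292, 294 and 243 CPM in T7-RA, and finally 265, 275 and 283 CPM in T14-RA. It fell by 0.90 on the log2 scale (SE 0.111, adjusted p = 1.40e-09 with edgeR) in the first week, and the change in the second, −0.017 (SE 0.117, adjusted p = 0.966 with edgeR), had a 95% interval of −0.25 to 0.21. With RA it measured 262, 252 and 243 CPM at day 7 and 373, 377 and 294 CPM at day 14. At day 14 all libraries with RA lay above those without, a difference of 0.36 (SE 0.115, adjusted p = 0.0301 with edgeR) that was not called.

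Tpm4 (ENSRNOG00000015496, at 16p14), a mainly cytoplasmic tropomyosin gene, fell in both weeks. It measured 1094, 1096 and 985 CPM at T0, then 552, 609 and 532 CPM in T7-RA, and finally 386, 363 and 413 CPM in T14-RA, with no overlap. It fell by 0.91 on the log2 scale (SE 0.0975, adjusted p = 2.07e-11 with edgeR) in the first week and by 0.54 on the log2 scale (SE 0.103, adjusted p = 9.88e-05 with edgeR) in the second. The second-week call was lost without T7-RA replicate 2 or T14-RA replicate 1 or 2 (edgeR adjusted p up to 0.00391). Under quantile normalization the calls of both weeks were lost. With RA it measured 476, 506 and 464 CPM at day 7 and 364, 338 and 292 CPM at day 14, below the libraries without RA at day 7 and overlapping with them at day 14, and the differences of −0.23 and −0.21 on the log2 scale were not called (edgeR adjusted p = 0.211 and 0.236).

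Within the tropomyosins, Tpm2 gained on Tpm4 with and without RA. Per kilobase, Tpm2 was 0.657 ± 0.116 times Tpm4 at T0, 4.32 ± 0.576 times in T14-RA and 3.23 ± 0.198 times in T14+RA (SD, n = 3). Per length, Tpm4 held 33.8% ± 1.49 of the family at T0 and 11.3% ± 1.13 in T14-RA, and Tpm2 held 22.1% ± 2.86 and 48.4% ± 1.38 (SD, n = 3). Tpm1 held 34.4% ± 0.577 at T0, then 35.5% ± 2.00 in T7-RA and then 35.6% ± 0.632 in T14-RA, and the libraries of these 3 groups overlapped in this share. With RA, Tpm1 held 48.1% ± 1.23 at day 7 and 49.4% ± 1.24 at day 14 and was the leading tropomyosin, while Tpm2 held 24.7% ± 0.697 and 33.7% ± 0.153. Tpm4 held 24.8% ± 0.732 without and 20.9% ± 0.828 with RA at day 7, where the libraries did not overlap, and 10.5% ± 0.709 with RA at day 14, where they overlapped with those without. The plot of tropomyosin shares gives every library.

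**Figure D4:**
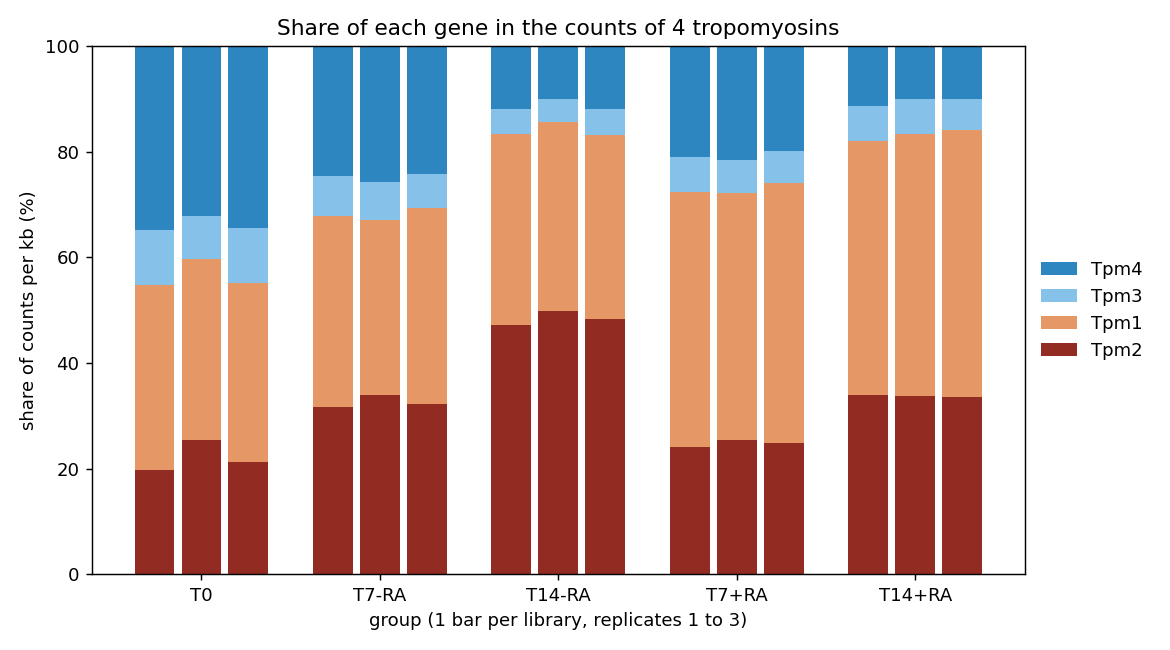
Make-up of the counts of the 4 tropomyosin genes per kilobase of listed length, in percent of their sum, for each of the 15 libraries in their 5 groups. Tpm2 led in T14-RA with 48.4% on average and Tpm1 led in T14+RA with 49.4%, while Tpm4 went from 33.8% at T0 to 11.3% and 10.5%.

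Both pointed-end caps were measured at low levels, and Tmod1 rose with time while Tmod3 had no called change. Tmod1 (ENSRNOG00000009761, at 5q22), the tropomodulin of striated muscle and red blood cells, measured 11.0, 7.50 and 8.38 CPM at T0, then 26.2, 16.1 and 14.5 CPM in T7-RA, and finally 49.2, 42.5 and 37.3 CPM in T14-RA. The 3 groups did not overlap. It rose by 2.22 (SE 0.360, adjusted p = 8.04e-07 with edgeR) over both weeks, from 16 to 87 counts per group, while the changes in the first week, 1.05 (SE 0.411, adjusted p = 0.0549 with edgeR), and in the second, 1.17 (SE 0.289, adjusted p = 0.00391 with edgeR), were not called. With RA it measured 22.8, 16.1 and 13.7 CPM at day 7 and 36.7, 31.4 and 48.9 CPM at day 14, overlapping with the libraries without RA, and the 95% interval of the day 14 difference was −0.68 to 0.33 on the log2 scale.

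Tmod3 (ENSRNOG00000032436, at 8q24), the widely expressed tropomodulin, measured 92.4, 84.4 and 105 CPM at T0, then 78.7, 87.4 and 87.1 CPM in T7-RA, and finally 52.9, 74.4 and 52.5 CPM in T14-RA. T14-RA lay below T0, a difference of −0.66 (SE 0.195, adjusted p = 0.00587 with edgeR) that was not called. With RA it measured 49.9, 60.4 and 65.1 CPM at day 7 and 39.5, 31.4 and 41.7 CPM at day 14, below all libraries without RA at each day. These differences, −0.53 (SE 0.189, adjusted p = 0.0763 with edgeR) and −0.65 (SE 0.220, adjusted p = 0.0435 with edgeR), were not called. Tmod1 made up 5.71% ± 1.15 of the pair per length at T0, 31.5% ± 5.29 in T14-RA and 39.4% ± 2.89 in T14+RA (SD, n = 3).

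Ordered by level per kilobase, Actb led in all 5 groups. At T0 it was followed by Tpm1 (1056 ± 100.4 CPM per kilobase, SD, n = 3) and Tpm4 (1037 ± 62.0), whose libraries overlapped, then by Actg1 and Tpm2, which overlapped too, by Tpm3 and by Tmod3. Acta1 (29.0 ± 7.31), Tmod1 and Actc1 (2.24 ± 0.729) were last. In T14-RA, Acta1 stood second (2268 ± 107), after Actb (3132 ± 61.7) and before Tpm2, Tpm1, Tpm4 and Actg1, with no overlap between neighbours down to Actc1, which overlapped with Tpm3. In T14+RA, Tpm1 stood second (1530.5 ± 90.8), Acta1 (1152 ± 122) overlapped with Tpm2, Tpm4 overlapped with Actg1, and Tmod3, Actc1 and Tmod1 overlapped in turn at the end. With RA at day 7, Acta1 (302 ± 50.3) was below Actg1, while in T7-RA it was above it (496 ± 51.5) and overlapped with Tpm4.

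In the additive model, in which the T7 and T14 terms are shifts against T0 that cultures with and without RA share and the RA term is the mean RA shift over both days, the T7 term was called for 7 members (Acta1 and Actc1 higher, Actb, Actg1, Tpm1, Tpm3 and Tpm4 lower, against 8.73% of all genes), the T14 term for 8 (17.3%) and the RA term for 4 (6.39%). The RA term was −2.73 (SE 0.184, adjusted p = 2.18e-18 with edgeR) for Actc1, −0.86 (SE 0.0811, adjusted p = 5.52e-13 with edgeR) for Acta1, −0.51 (SE 0.0794, adjusted p = 1.02e-06 with edgeR) for Tpm2 and 0.41 (SE 0.0685, adjusted p = 4.56e-06 with edgeR) for Tpm1. The T14 term was 6.18 (SE 0.159, adjusted p = 7.14e-39 with edgeR) for Acta1 and 6.04 (SE 0.334, adjusted p = 3.32e-22 with edgeR) for Actc1, and it rose for Tmod1 and Tpm2 too and fell for Actb, Actg1, Tpm3 and Tpm4. The T14 term of Tmod3, −0.69 (SE 0.182, adjusted p = 0.00193 with edgeR), was called only without T14-RA replicate 2 among all alternatives at that threshold. The T7 term of Tpm1, −0.39 (SE 0.0909, adjusted p = 0.000720 with edgeR), lost its call without any of 10 libraries (edgeR adjusted p up to 0.00981), and also with library size only, with at least 10 counts in every library and with limma-trend (adjusted p = 0.0155, 0.00204 and 0.00135). Under quantile normalization 3 members were called at the T7 term and 2 at the RA term, where 2.57% and 2.68% of all genes were called, and the RA term of Tpm1 and Tpm2 and the T14 term of Actb and Tpm3 lost their calls (limma adjusted p = 0.00548, 0.0074, 0.1005 and 0.00506).

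Whether RA acted differently at day 14 and day 7 was tested as the difference of both RA changes, called at an adjusted p under 0.05. None of the 10 members was called, where 0.743% of all genes were. With edgeR 2 members had an unadjusted p under 0.05, Actc1 with −1.23 (SE 0.461, adjusted p = 0.338 with edgeR) and Tpm3 with 0.49 (SE 0.164, adjusted p = 0.218 with edgeR), and DESeq2, limma-voom and limma-trend called none either. The differences of the other 8 members lay between −0.27 (Tpm2) and 0.059 (Actb). The 95% interval for Actc1 was −2.13 to −0.33. The plot of changes sets the comparisons side by side.

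**Figure D5:**
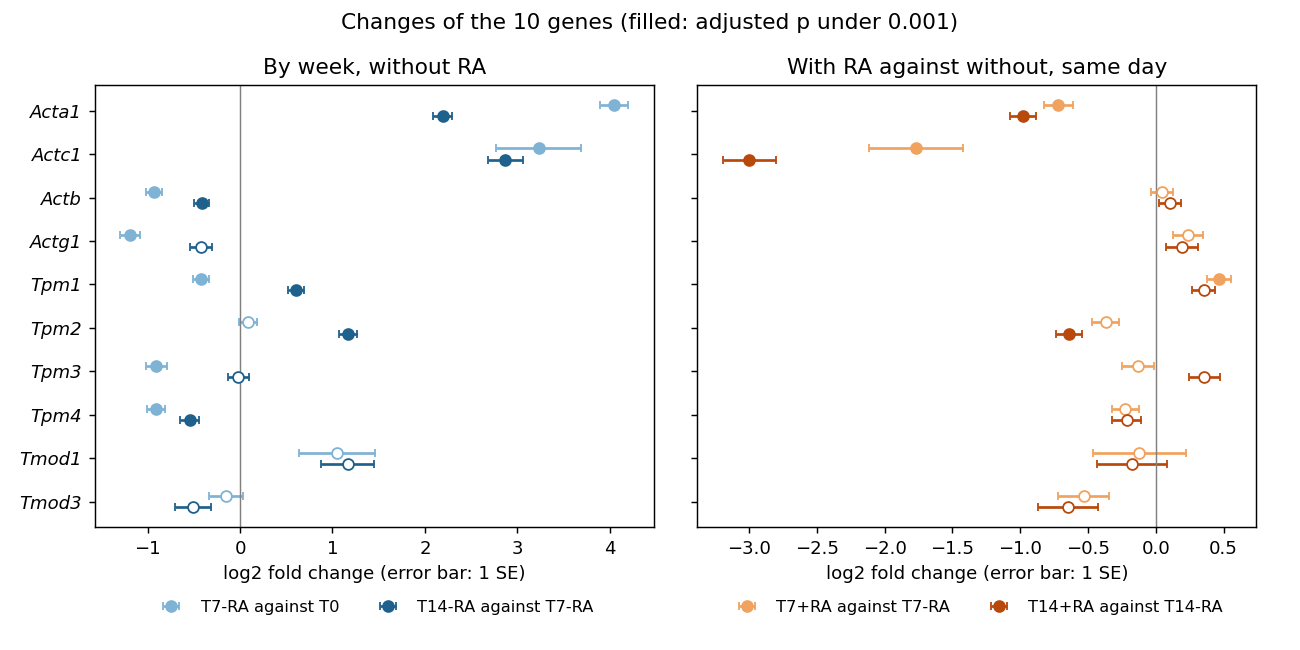
Log2 fold change of each of the 10 genes from edgeR for each week without RA (left) and for RA at day 7 and day 14 (right), with bars of 1 standard error. Filled points have an adjusted p under 0.001 over all 11574 genes. The largest change by week was that of Acta1 in the first (4.04), the largest with RA was that of Actc1 at day 14 (−3.00), and Tpm1 was higher with RA while Tpm2 was lower. The first-week fall of Actb turned to a rise under quantile normalization.

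The genes whose profile over the 15 libraries was closest to that of a member are named by the mean absolute difference of centred log2 CPM, among 6381 genes with at least 300 counts. For Acta1, which spanned 6.62 on this scale, these were Tnni1 (0.268), Tnnt3 (0.284) and Chrnd (0.326), which encode slow troponin I, fast troponin T and a subunit of the muscle acetylcholine receptor. For Actc1 they were Chrna1 (0.481), Myom2 and AABR07005775.1, and for Tmod1 they were Cap2 (0.205), Dusp27 and Akap8l. Actb was closest to Mprip (0.0733), Mfge8 and Lrrc59, and Actg1 to Tagln (0.114), Coro1c and Ube2s. The tropomyosin genes were closest to Tmem199, Ghitm and Slc41a1 (Tpm1), Pkig, Tmem109 and Xdh (Tpm2), Pgm5, Hmox1 and Cavin3 (Tpm3), and Ptbp1, Esyt1 and Amotl2 (Tpm4). All 15 points of a profile share the libraries and groups, and nothing on shared control follows from it.

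Other genes of the actin pathway were counted from lists in the additive model, for which the median log2 change over all genes was 0.045 at the T14 term and −0.0086 at the RA term, with 17.3% and 6.39% of all genes called. Of 11 other actins and actin-related proteins, 0 rose and 3 fell at the T14 term, and 0 rose and 1 fell at the RA term (median 0.054 and −0.19), which is 27.3% and 9.09% of the list. Those that fell at the T14 term were Acta2, −2.28 (SE 0.0948, adjusted p = 1.45e-28 with edgeR), Actg2, −2.08 (SE 0.106, adjusted p = 2.33e-24 with edgeR), and Actr3 of the Arp2/3 complex, −0.79 (SE 0.0968, adjusted p = 1.14e-09 with edgeR). The gene that fell at the RA term was Actg2, −0.50 (SE 0.0882, adjusted p = 1.12e-05 with edgeR). Of 14 genes of filament ends and thin-filament length, 6 rose and 2 fell at the T14 term, and 0 rose and 3 fell at the RA term (median 0.53 and −0.22). Neb, the gene of nebulin, which spans the thin filament, rose from 46.5 ± 10.6 CPM at T0 to 1876 ± 398 CPM in T14-RA, a T14 term of 5.26 (SE 0.442, adjusted p = 1.29e-06 with edgeR). Xirp1 rose by 2.23 (SE 0.215, adjusted p = 5.36e-12 with edgeR). Xirp2 had 1 count over the T0 libraries and 76 over those of T14-RA, and its RA term was −1.75 (SE 0.384, adjusted p = 0.000501 with edgeR). At the RA term Lmod3, a muscle nucleator at the pointed end related to the tropomodulins, fell by 1.03 and the barbed-end cap Capg by 0.62 on the log2 scale.

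Of 17 genes of monomer binding and turnover, 3 rose and 6 fell at the T14 term, and 1 rose and 2 fell at the RA term (median −0.44 and −0.030). Cfl2, the muscle form of the filament-severing protein cofilin, rose at both, with 1.82 (SE 0.147, adjusted p = 7.63e-16 with edgeR) at the T14 term and 0.82 (SE 0.0880, adjusted p = 3.71e-11 with edgeR) at the RA term. Cap2, a cyclase-associated protein that recycles actin monomers, rose by 1.85 (SE 0.212, adjusted p = 1.41e-10 with edgeR), and Coro1c fell by 1.64 on the log2 scale. Gsn, which severs and caps filaments, and Tmsb4x, which sequesters monomers, fell at the RA term by 0.99 and 0.85 on the log2 scale. Of 17 genes of nucleation, 1 rose and 3 fell at the T14 term, and 0 rose and 1 fell at the RA term (median −0.11 and −0.061), which is 23.5% and 5.88% of the list against 17.3% and 6.39% of all genes. The formins Diaph3 and Daam1 fell by 1.61 and 1.34 on the log2 scale at the T14 term, Arpc5l rose by 1.08, and Fhod1 fell by 0.66 at the RA term.

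Of 21 genes of side binding and crosslinking, 4 rose and 14 fell at the T14 term, and 1 rose and 4 fell at the RA term (median −1.01 and −0.095), while 980 of all genes rose and 1024 fell at the T14 term. Actn2 and Actn3, the α-actinins of the muscle Z-disc, had 0 counts in all T0 libraries, which allows up to 3 counts over the group, and 80 and 89 counts over those of T14-RA. Cnn1, a calponin of smooth muscle, fell by 2.41 on the log2 scale at the T14 term. At the RA term Synpo rose by 1.83, while Actn2 and Pls3 fell by 1.89 and 0.57 on the log2 scale. Of 18 genes of actin gene control and actin maturation, 1 rose and 4 fell at the T14 term, and 1 rose and 1 fell at the RA term (median −0.11 and −0.027), which is 27.8% and 11.1% of the list against 17.3% and 6.39% of all genes. Myocd, the coactivator of serum response factor in heart and smooth muscle, fell by 1.03 at the T14 term and by 1.00 at the RA term on the log2 scale. Srf, the gene of serum response factor, had a T7 term of −0.78 (SE 0.160, adjusted p = 0.000168 with edgeR) and a T14 term of −0.61 (SE 0.161, adjusted p = 0.00199 with edgeR), of which the first was called, and its coactivator Mrtfa fell at both, by 0.72 and 1.03 on the log2 scale. Neither was called at the RA term. Vgll3 fell by 1.45 on the log2 scale at the T14 term, Fhl2 rose by 1.78 at the RA term, and Abra had 0 counts at T0 and 24 over the T14-RA libraries.

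Summed levels of skeletal-muscle, smooth-muscle and dividing-cell markers also differed between T0 and T14-RA, while those of fibroblast markers overlapped. The summed level of 9 skeletal-muscle markers (of 12) was 655 to 670.4 CPM at T0, 8413 to 9009 CPM in T14-RA and 3525 to 4083 CPM in T14+RA, in the same order as Acta1 and Actc1. At the T14 term 7 of the 9 rose and 0 fell, and at the RA term 4 fell and 0 rose. These are 77.8% and 44.4% of the list, against 17.3% and 6.39% of all genes. Embryonic myosin Myh3 alone measured 5056 ± 139 CPM in T14-RA, while Myh4 measured 435 ± 34.1 CPM at T0 and 434 ± 73.9 CPM in T14-RA, and Myod1 115 ± 40.2 and 80.2 ± 16.0 CPM. All 7 smooth-muscle markers, which include Acta2 and Actg2, were analysed and summed to 16639.5 to 18409 CPM at T0, 3810.0 to 3957 CPM in T14-RA and 4306 to 5097 CPM in T14+RA, mostly from Acta2. Of the 7, 1 rose and 5 fell at the T14 term, and 2 fell at the RA term. That is 85.7% and 28.6% of the list, against 17.3% and 6.39% of all genes. The 6 markers of dividing cells summed to 1429.6 to 1643 CPM at T0, 519 to 602 CPM in T14-RA and 344 to 471 CPM in T14+RA. Fibroblast markers, 5 of 7 analysed, summed to 28480.0 to 41788 CPM at T0 and 28682 to 29087 CPM in T14-RA, a sum led by Col1a1. At the T14 term 3 of the 5 rose and 2 fell, and at the RA term 1 rose and 3 fell. This is 100% and 80% of the list against 17.3% and 6.39% of all genes. Col1a1 measured 29893 ± 6673 CPM at T0 and 20184 ± 104 CPM in T14-RA, and Col3a1 3028 ± 258 and 8032 ± 187 CPM. Dcn had 0 counts over the T0 libraries and 102 over those of T14-RA, and Lum 0 and 57. Of 6 endothelial markers 1 was analysed, at no more than 6.29 CPM, and none of 5 leukocyte markers was among the genes analysed here. Their part in the changes of the actins, tropomyosins and tropomodulins was not tested.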

How the data were processed

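The authors trimmed the reads of stranded mRNA libraries, mapped them with HISAT2 to rat build Rnor_6.0 and counted them per gene with featureCounts (versions and strand setting not given in the sources used here), and deposited raw, unnormalized counts of the genes whose sum over all libraries exceeded 20. Gene length in bases, band and identifier are from the same deposited table. The cell line field of the labels counts upward across samples, and the titles were followed.

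Counts of all 15 libraries and 11574 genes were fitted with edgeR 4.0.16 in R 4.3.3 (TMM, robust quasi-likelihood F test), with an additive model (T7, T14 and RA terms) and a model of 5 group means. Benjamini-Hochberg adjustment was over all genes, with calls under 0.001, or 0.05 for the difference between days. The SE is the absolute log2 change divided by the square root of F. The 95% intervals of changes were built from it under a normal distribution, and both are approximate where counts are few. P-values over cultures of 1 line measure the spread between these cultures. All 10 genes were counted in every comparison. Other genes were named as up to 3 called genes per list with the largest T14 or RA term and the 3 closest profiles per called member. Single markers with values, Srf and Mrtfa were named after their values were seen. Members and lists were chosen with earlier results of these data known. Shares, ratios and levels are values with SD and no test. Counting intervals (95%, exact) cover counting error only, as reads carried no molecular identifiers.

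Alternatives were other size factors, library size only, count filters, limma 3.58.1 (voom, trend, quantile-normalized values), DESeq2 1.42.0, an adjusted p under 0.05, a replicate block and each library left out. Replicate libraries differed beyond sampling noise (chi-square of at least 1.07 per gene), so all were kept. Same-numbered cultures of different groups did not deviate together (30 pairs, correlations of −0.035 to 0.099).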

Additional observations from a re-analysis of the deposited data

How the results depend on the processing

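Of the results for single members under alternatives, 2052 kept direction and side of the threshold, 56 lost a call, 6 gained one and 27 turned in direction. Among those that turned, only those of Actb under quantile normalization were called in the main analysis: 0.096 at the T7 term and 0.19 in the first week. The others had changes near 0. Tpm3 in the second week gave 0.0039 with at least 10 counts in every library and 0.029 under quantile normalization, and −0.10 to 0.029 with each library left out. The difference between days gave −0.0041 for Tpm4 with limma-trend and −0.055 under quantile normalization, and with each library left out it ranged from −0.070 to 0.076 for Tpm4, from −0.15 to 0.030 for Actg1, from −0.38 to 0.18 for Tmod1 and from −0.23 to 0.038 for Tmod3. The RA change at day 7 ranged from −0.015 to 0.10 for Actb and from −0.36 to 0.20 for Tmod1 in the same way.

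Quantile normalization moved the number of members called to 3 at the T7 term, 2 at the RA term, 2 in the first week, 2 in the second week, 0 for RA at day 7 and 1 for RA at day 14. It lowered the calls over all genes too, from 1016 to 240 in the first week, from 342 to 56 in the second, from 367 to 97 for RA at day 7 and from 557 to 157 for RA at day 14. The cause was not tested. An adjusted p under 0.05 gave 6 members for RA at day 14. With each library left out, RA at day 7 gave 1 to 3 members, with 1 left without T7-RA replicate 2 or T7+RA replicate 3. With the replicate block, 7, 8 and 4 members were called at the T7, T14 and RA terms, and 4 for RA at day 14, where it added Tpm1. It changed no other call. The numbers share no known batch, and none of 30 same-numbered pairs reached the correlation of 0.1 set for pairing.

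Adding Acta2 and Actg2 to the muscle actins moved their share of the actin counts to 55.0% at T0, to 43.2% at day 7 and 58.7% at day 14 without RA, and to 42.0% and 51.9% with RA, with the counts of all 6 actins as the total. The share of Acta1 and Actc1 alone among 4 actins in T14-RA was 41.7% per length. Scaling by library size only moved the median log2 change of all genes to 0.13 at the T7 term and 0.15 at the T14 term, against 0.022 and 0.045, and at the T14 term 1221 genes then rose and 844 fell, against 980 and 1024. No member turned in direction under it. At totals of 508397 to 1030820 counts, Actc1 at T0 (6 counts) and Tmod1 (268 counts in all) are the least precise.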

Other observations

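The 10 genes together took 1.50% ± 0.0548 of all counts at T0, then 1.01% ± 0.0541 in T7-RA and then 1.31% ± 0.0184 in T14-RA (SD, n = 3), so that the sum fell in the first week and partly came back in the second. With RA they took 1.00% ± 0.0447 at day 7 and 1.13% ± 0.0614 at day 14. Actb alone held a rank between 3 and 7 by count in every library, whereas Tpm1 held ranks 33 to 47 at T0 and 17 to 19 in T14+RA, and Tpm4 went from ranks 86 to 99 at T0 to ranks 434 to 598 in T14+RA.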
